A study of Mus musculus with 17 samples.

Results

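Npas4, an activity-induced transcription factor of neurons, was examined together with 8 genes of synaptic function that neuronal activity is known to induce: Nptx2, Inhba, Pcsk1, Homer1, Arc, Sorcs3, Rgs2 and Ptgs2. The 9 genes were taken by symbol, out of 24498 gene symbols in the count table, to ask whether the effectors moved with Npas4. The genes were selected on measured values, because Npas4 was known to be highest in a pair of libraries from male knockout mice injected with tau. All 9 genes passed the filter on low counts in every fit.

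The libraries were bulk RNA-seq of polyadenylated RNA from dorsal hippocampus, 17 in all. Mice were either wild type (WT) or knockout (KO) for Acss2, which codes for acetyl-CoA synthetase 2, the enzyme that makes acetyl-CoA from acetate. They were injected into the dorsal hippocampus at 6 months of age with tau purified from the brains of Alzheimer's disease patients (Tau) or with phosphate-buffered saline (PBS), and the study's methods place the measurement 6 months later. Males had all 4 combinations of genotype and injection (WT PBS, WT Tau, KO PBS and KO Tau), with 3 libraries per group, whereas females were injected with tau only, giving 3 KO Tau and 2 WT Tau libraries. Every mouse had been through surgery, the controls included. The knockout was constitutive, KO and WT mice came from separate homozygous crosses, and the tau was of human origin. Each library is called by its animal number from the labels, taken as 1 animal.

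NPAS4 is an early-response factor that depolarization and calcium entry switch on in neurons, where it pairs with ARNT-type partners and adjusts inhibitory and excitatory synapses. The effectors act at several sites of the synapse. Nptx2 is a secreted pentraxin that clusters AMPA receptors, Inhba is the subunit of the ligand activin A, and Pcsk1 is a convertase that cuts prohormones and proneuropeptides. Homer1 is a postsynaptic scaffold, Arc drives the uptake of AMPA receptors, Sorcs3 is a sorting receptor of the postsynaptic density, Rgs2 quenches G-protein signalling and Ptgs2 is the inducible cyclooxygenase of prostaglandin synthesis.

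The promoters of the effectors bear on the question because NPAS4 and CREB, the factor bound at cAMP response elements, read different short motifs. RefSeq promoters (GRCm38.p6) were found for 7 of the 9 genes, 8 promoters in all. Windows of 300 bases (250 before and 50 after the start site) were searched on both strands for the NPAS4 motif TCGTG, for the short element TGACG and for the full palindromic cAMP response element, which contains 2 overlapping short elements. Only Rgs2 held the NPAS4 motif, 2 times, against 16.0% of 32851 promoters of the same length with at least 1. The short element occurred 3 times in Pcsk1 (2 of them as the full element), 3 times in the first Homer1 promoter, 2 times each in Rgs2 and Npas4, and 1 time in Ptgs2, against 20.8% of all promoters. Of the 7 genes searched, only Pcsk1 held the full element, which occurred in 1.79% of all promoters; Arc and Nptx2 were not searched. Inhba, Sorcs3 and the other Homer1 promoter held neither. These matches are letters in a window and not measured binding.

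The upstream parts of the 3 effector promoters with the most matches are shown because they are where the motifs differ between effectors. They run 5′ to 3′ and hold no annotated exon base, on the plus strand for Pcsk1 (chr13:75089607-75089825) and Homer1 (chr13:93303507-93303756) and on the minus strand for Rgs2 (chr1:144004162-144004399). The windows of Pcsk1 and Rgs2 end just before the annotated gene, whereas that of Homer1 ends at the RefSeq start site and lies inside the annotated gene, which opens upstream at chr13:93299635. Capitals mark motif matches on either strand (CACGA and CGTCA are the complements).
Pcsk1: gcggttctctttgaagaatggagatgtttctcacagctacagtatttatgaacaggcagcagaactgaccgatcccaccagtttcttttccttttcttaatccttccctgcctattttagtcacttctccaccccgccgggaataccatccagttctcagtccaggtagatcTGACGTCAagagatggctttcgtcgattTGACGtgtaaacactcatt
Homer1: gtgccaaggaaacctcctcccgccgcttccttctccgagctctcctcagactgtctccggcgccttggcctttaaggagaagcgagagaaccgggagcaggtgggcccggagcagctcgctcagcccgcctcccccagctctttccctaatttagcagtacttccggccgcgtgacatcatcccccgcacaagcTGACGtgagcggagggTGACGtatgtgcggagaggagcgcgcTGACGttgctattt
Rgs2: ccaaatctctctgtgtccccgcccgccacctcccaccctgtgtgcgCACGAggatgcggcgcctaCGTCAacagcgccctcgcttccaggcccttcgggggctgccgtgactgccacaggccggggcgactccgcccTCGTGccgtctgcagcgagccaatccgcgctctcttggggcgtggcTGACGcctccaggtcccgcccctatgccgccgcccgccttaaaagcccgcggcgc

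Before the members, the libraries themselves need describing. Total counts ran from 14183131 to 22463635, and values below are CPM, each count scaled to the total of its library, so that the limit of 3 counts was 0.134 to 0.212 CPM. Acss2 was at 3.07 to 8.81 CPM in KO and 44.0 to 54.6 CPM in WT libraries, without overlap. Dissection differed between libraries. The summed level of 7 dentate granule cell markers was 32.0 CPM in male KO PBS 752 and 67.3 CPM in male KO Tau 712, against 119 to 458 CPM in the other 15 libraries. The summed level of 5 neocortex markers was highest in the same libraries and in male KO Tau 713 (402, 338 and 303 CPM, against 115 to 226 CPM in the other 14). The 5 female libraries and male KO Tau 711 had astrocyte markers of 6261 to 7211 CPM, against 3196 to 3997 CPM in the other 11. Markers of 7 striatal genes reached 450 CPM in 752 and choroid plexus markers 4031 CPM in 713. Thalamus markers were at 391 CPM in female WT Tau 331 and at 374 and 300 CPM in female KO Tau 324 and 325. They were at 64.9 to 201 CPM in the other 14. In bulk tissue fewer cells of a type and less RNA per cell cannot be told apart.

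Scaled to exon length as well as library size (RPKM), the members spanned a wide range in male WT PBS. Arc was highest at 72.5 ± 12.9 RPKM (SD, n = 3), followed by Nptx2 at 20.0 ± 6.04, Rgs2 at 13.9 ± 0.098, Homer1 at 11.5 ± 2.00, Sorcs3 at 8.42 ± 0.418, Pcsk1 at 6.47 ± 0.877, Ptgs2 at 5.10 ± 1.76, Npas4 at 2.95 ± 0.242 and Inhba at 0.503 ± 0.181. The libraries of neighbours in this order overlapped only for Pcsk1 and Ptgs2. Npas4 was thus one of the 2 lowest members at baseline.

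Npas4 (ENSMUSG00000045903.9, chr19:4984355-4990316, minus strand) measured 16.8, 71.4 and 37.0 CPM in male KO Tau 711, 712 and 713. The other 9 male libraries lay between 9.75 and 19.0 CPM, with 12.2 ± 1.00 (SD, n = 3) in WT PBS, 13.4 ± 4.96 in WT Tau and 12.9 ± 2.70 in KO PBS. Library 711 therefore sat inside the range of the other males, and 712 and 713 were 5.93 and 3.07 times their median. In females Npas4 was 14.9, 10.1 and 9.83 CPM in KO Tau and 2.84 and 8.32 CPM in WT Tau, so that the lowest value of the series came from female WT Tau 331. The log2 fold change of male KO Tau was 1.78 (SE 0.42) against WT PBS, 1.65 (SE 0.42) against WT Tau and 1.65 (SE 0.42) against KO PBS. Without 711 these values were 2.15 (SE 0.31), 2.02 (SE 0.31) and 2.02 (SE 0.31). They describe the pattern for which the gene was chosen and carry no test.

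**Figure D1:**
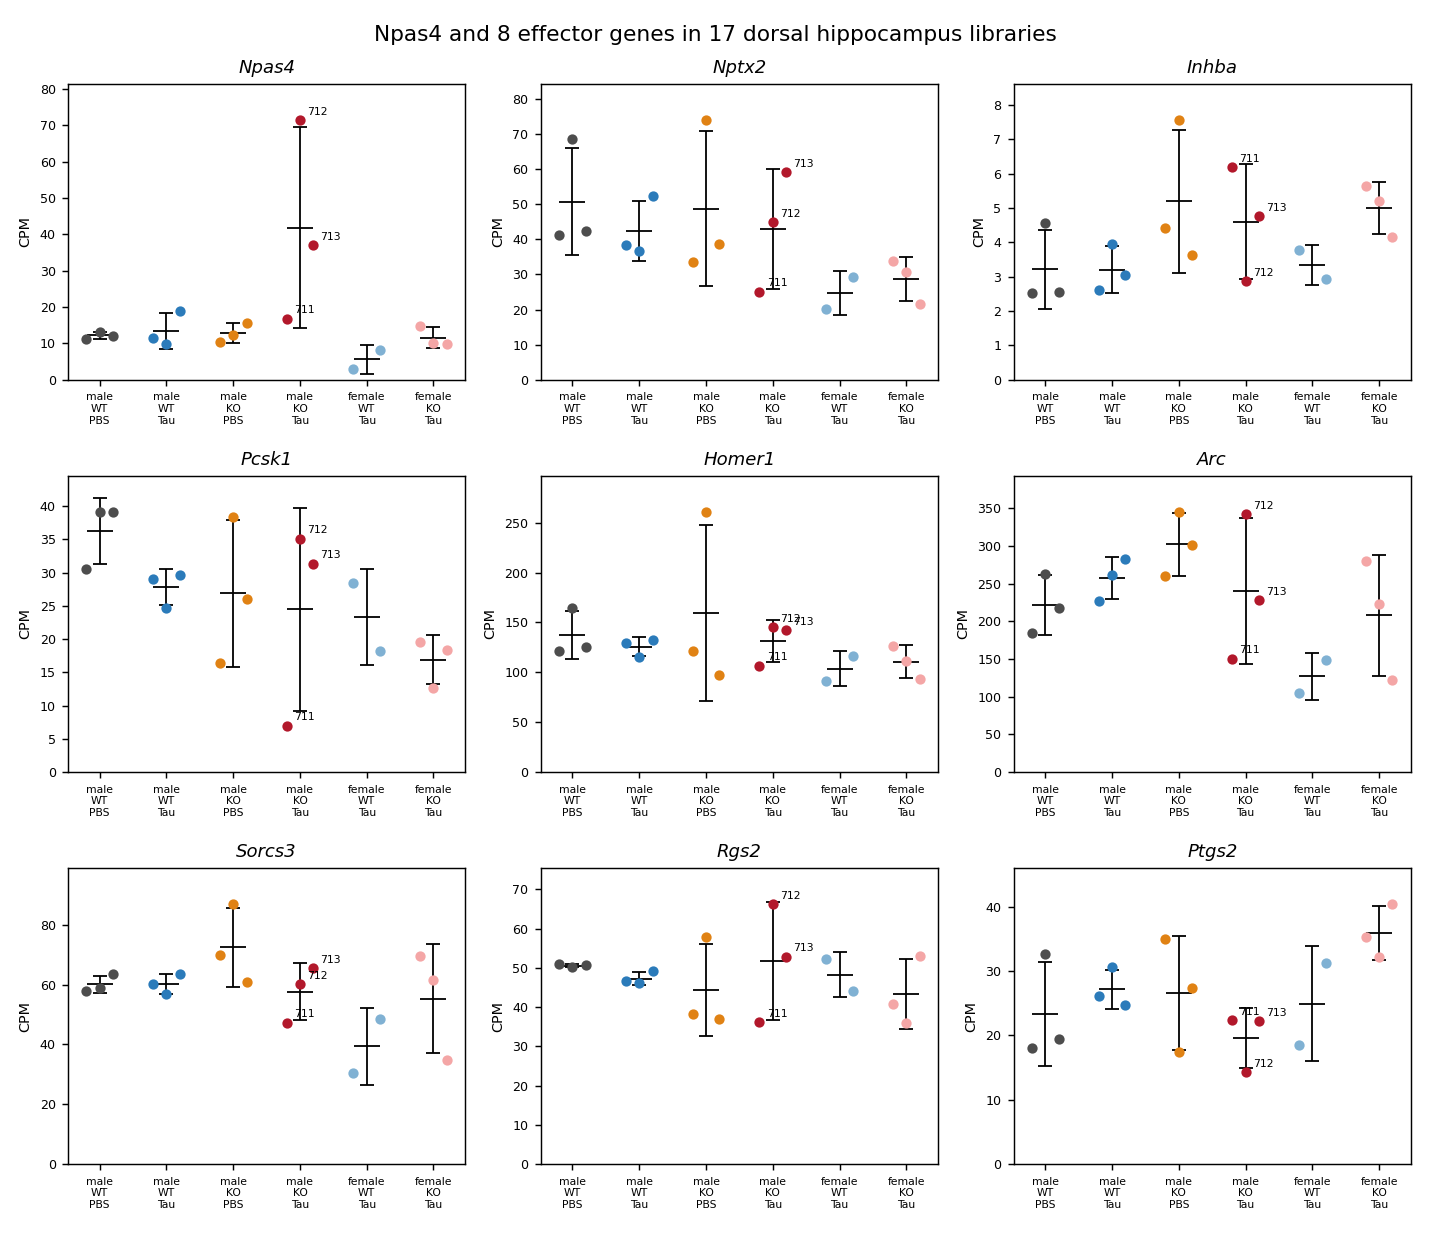
CPM of Npas4 and the 8 effectors (vertical axis, from 0) in each of 17 libraries, by group. Points are libraries, the black dash and bars are the mean and SD, and the male KO Tau libraries are numbered; Npas4 libraries 712 and 713, at 71.4 and 37.0 CPM, stand above all others, and no effector panel has that shape.

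No effector repeated this shape. Over 15044 genes tested in both fits, 3.08% had 712 and 713 both above the other 15 libraries, and among the 9 members Npas4 alone did. Only Rgs2 had 1 male KO Tau library above the range of the other 9 males. Nptx2, Pcsk1, Rgs2, Sorcs3 and Arc had 711, and Ptgs2 had 712, below that range. Thus 6 of 8 effectors had a male KO Tau library below the other males and 1 had one above, against 37.5% and 38.4% of all genes. In 5 of those 6 it was 711, the library with the high astrocyte markers, which was below the other males for 24.3% of all genes. These libraries were part of the choice of genes, so nothing is read from the counts. No member had all 3 male KO Tau libraries above the other 9 males, against 0.871% of all genes. What 7 of the 9 members did share was an order within the group, with 712 and 713 both above 711 (Inhba and Ptgs2 were the exceptions), and 44.0% of all genes had the same order.

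**Figure D2:**
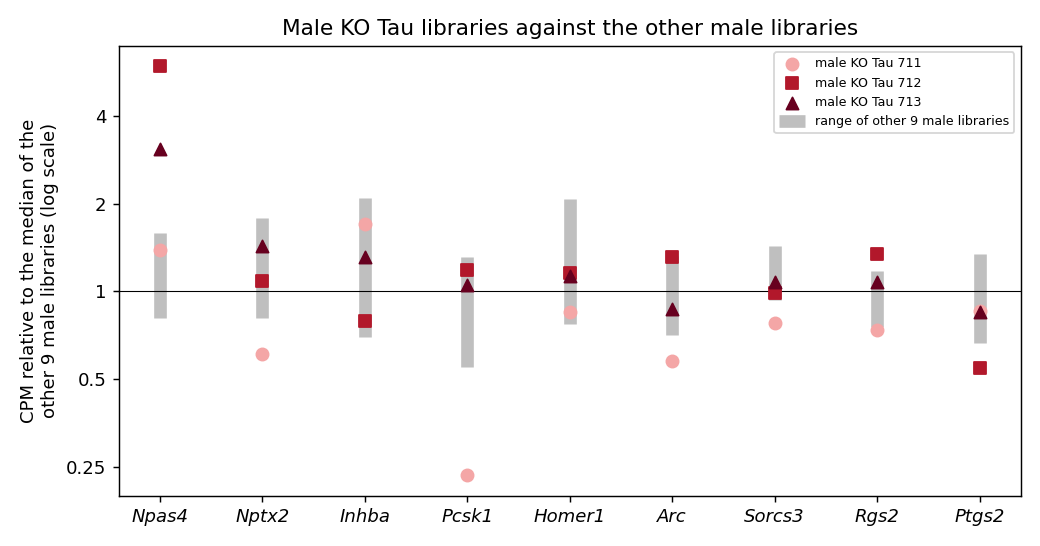
CPM of male KO Tau 711, 712 and 713 relative to the median of the other 9 male libraries (vertical axis, log scale) for each member, with the range of those 9 in grey. Npas4 reaches 5.93 in 712 and 3.07 in 713, while the largest effector ratio is 1.71 (Inhba in 711) and the smallest is 0.233 (Pcsk1 in 711).

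Among the secreted effectors, Nptx2 (chr5:144545902-144557478, plus strand) measured 25.1, 44.9 and 59.1 CPM in male KO Tau 711, 712 and 713. It was 41.3, 68.4 and 42.5 CPM in WT PBS, 38.2, 36.7 and 52.3 CPM in WT Tau and 33.5, 73.9 and 38.7 CPM in KO PBS. All 4 male groups overlapped, and 1 library in each PBS group (792 and 752) was the highest. The 5 female libraries lay between 20.2 and 33.8 CPM, overlapping only the low end of the males. The log2 fold change of male KO Tau was -0.23 (SE 0.35) against WT PBS and became 0.03 (SE 0.34) without 711.

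Inhba (chr13:16011851-16031621, plus strand) was the least abundant member. Male KO Tau libraries 711, 712 and 713 held 6.18, 2.87 and 4.75 CPM, so the library with the most Npas4 had the least Inhba of the 3. Its levels were 2.52, 4.55 and 2.57 CPM in WT PBS, 2.62, 3.94 and 3.05 CPM in WT Tau, 4.41, 7.56 and 3.62 CPM in KO PBS, and 4.17 to 5.64 CPM in female KO Tau against 3.76 and 2.94 CPM in female WT Tau. A pair of annotated genes on the opposite strand lies over Inhba exons, and the library kit named in the labels does not mark strand although the reads were counted as reverse-stranded, so their reads cannot be told apart.

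Pcsk1 (chr13:75089826-75134861, plus strand) carried the widest effector range, 5.64 times from lowest to highest library. Male KO Tau 711 was the lowest of all 17 at 6.94 CPM, while 712 and 713 were at 35.1 and 31.3 CPM. WT PBS libraries were at 30.6, 39.1 and 39.1 CPM, WT Tau at 29.0, 24.7 and 29.7 CPM, and KO PBS at 16.3, 38.3 and 26.0 CPM. Libraries 712 and 713 thus lay among the controls, and the group's log2 fold change of -0.56 (SE 0.45) against WT PBS became -0.13 (SE 0.27) without 711.

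At the postsynaptic density, Homer1 (chr13:93299635-93405129, plus strand) measured 107, 145 and 142 CPM in male KO Tau 711, 712 and 713, inside the range of 97.2 to 261 CPM of the other males. The top of that range was a single library, KO PBS 752, and the next was WT PBS 792 at 165 CPM. The annotation lists 12 transcripts of Homer1, and the counts pool the short activity-induced form with the long forms. Arc (chr15:74669083-74672570, minus strand), also an immediate early gene, was at 150, 342 and 228 CPM in 711, 712 and 713. It was 185, 263 and 217 CPM in WT PBS, 228, 262 and 283 CPM in WT Tau, and 261, 345 and 301 CPM in KO PBS. Library 712 had nearly the level of KO PBS 752, in which Npas4 was only 12.5 CPM. Sorcs3 (chr19:48206025-48805505, plus strand) was at 47.2, 60.2 and 65.6 CPM in 711, 712 and 713, against 57.0 to 63.5 CPM in the 6 male WT libraries and 69.8, 86.9 and 60.8 CPM in KO PBS.

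The signalling genes differed from each other. Rgs2 (chr1:143999338-144004161, minus strand) measured 36.1, 66.2 and 52.9 CPM in male KO Tau 711, 712 and 713, and 712 was the highest of the 17 libraries. It was 50.2 to 50.9 CPM in WT PBS, 46.0 to 49.2 CPM in WT Tau and 38.3, 57.8 and 37.0 CPM in KO PBS. Both male KO groups thus scattered more than both male WT groups (SD 15.1 and 11.6 against 0.356 and 1.68 CPM, n = 3 each). The same held for Nptx2, Inhba, Pcsk1, Sorcs3 and Arc, but not for Npas4, Homer1 and Ptgs2. The share of all genes with this order was not counted, so nothing is read from these SDs. The KO groups held 711 and 752, whose tissue markers differed as given above, and the part of those in the scatter was not tested. Ptgs2 (chr1:150100031-150108227, plus strand) ran opposite to Rgs2, with its lowest level of the series in 712 at 14.3 CPM. Libraries 711 and 713 had 22.4 and 22.2 CPM of Ptgs2. It was 18.0, 32.6 and 19.4 CPM in WT PBS, 26.2, 30.6 and 24.8 CPM in WT Tau and 35.1, 17.3 and 27.4 CPM in KO PBS.

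With the quasi-likelihood test of edgeR at a false discovery rate (FDR) of 0.05, 0 of 8 effectors were called in male KO Tau against WT PBS (0.00662% of genes called), WT Tau (0.00662%) or KO PBS (0.0%), and DESeq2 and limma voom on the same libraries called 0 as well. Leaving 711 out of the joint male fit, edgeR called 1, 1 and 0 genes against WT PBS, WT Tau and KO PBS. Fitting only the compared groups with 711 kept, it also called 1, 1 and 0. Against WT PBS and WT Tau the shares rose when both changes were made. With only the compared groups fitted and 711 left out, edgeR called 4.15% of genes against WT PBS (311 higher, 309 lower), 4.88% against WT Tau (355 higher, 378 lower) and 0.0% against KO PBS. DESeq2 on those libraries called 6.91% (496 higher, 537 lower), 9.23% (641 higher, 745 lower) and 0.0934%. In each of these fits 0 of 8 effectors were called. At an unadjusted p under 0.05 the edgeR counts were 0, 0 and 1 effector (Sorcs3). As these contrasts were used to choose the genes, nothing is read from the counts. The effectors' log2 fold changes had medians of -0.06, 0.00 and -0.27 in the 3 contrasts, which share the male KO Tau libraries. Without 711 the medians were 0.07, 0.24 and -0.17, with 6, 7 and 3 of 8 effectors positive. Npas4 and Ptgs2 did not overlap between the groups in some of these contrasts: Npas4 was higher than every WT PBS library (14.4% of genes without overlap) and every KO PBS library (9.01%), and Ptgs2 lower than every WT Tau library (12.6%).

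Regional markers are set beside Npas4 as a description only, because male KO Tau 712 and 713 entered the choice of genes. Male KO Tau 712 and 713 had the most Npas4 and stood next to the top for neocortex markers, while 711 had 120 CPM of them and Npas4 inside the male range. KO PBS 752 had more neocortex and fewer dentate granule markers than 712, and the Npas4 levels of these libraries were 12.5 and 71.4 CPM. For Homer1, Nptx2, Inhba, Arc and Sorcs3, by contrast, 752 was the highest of 17 libraries. Npas4 in male KO Tau was also fitted under 10 alternatives of tool, scaling, filter, libraries or a dentate granule covariate. Its log2 fold changes ran from 1.47 to 2.15 against WT PBS. They ran from 1.30 to 2.03 against WT Tau and from 1.54 to 2.02 against KO PBS. The values rested most on 712. Without it they fell to 1.16 (SE 0.33), 1.03 (SE 0.33) and 1.03 (SE 0.33), the lowest of all 22 alternatives for each comparison. The part of dissection in the Npas4 and effector values was not tested.

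**Figure D3:**
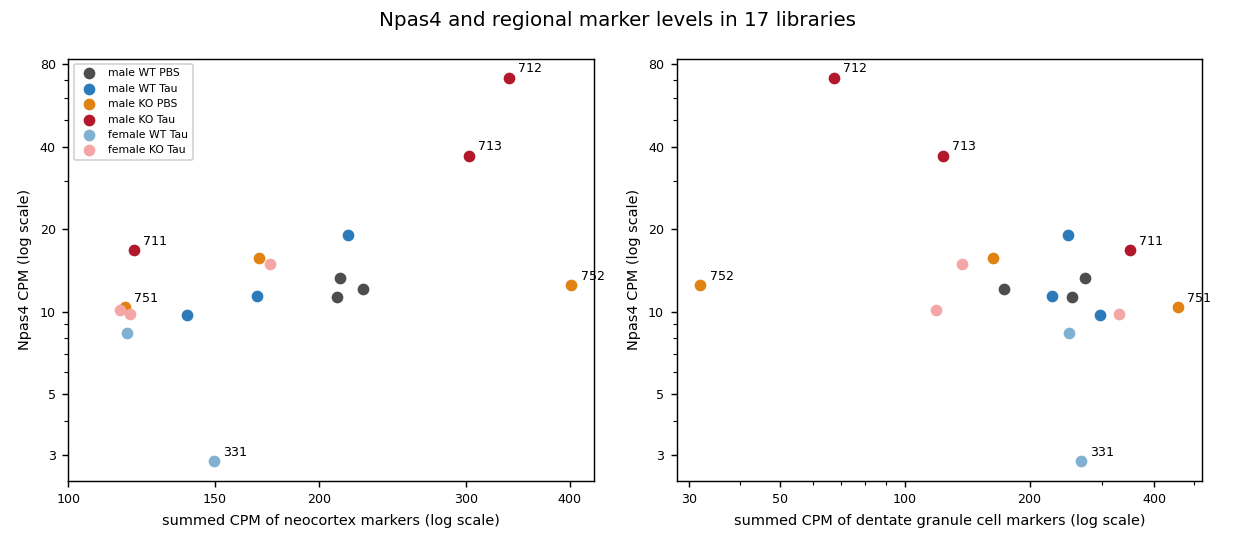
Npas4 CPM (vertical axis, log scale) against the summed CPM of 5 neocortex markers (left) and 7 dentate granule cell markers (right, log scales) in 17 libraries coloured by group. KO PBS 752 lies beyond 712 on both marker axes at 12.5 CPM of Npas4, where 712 has 71.4 CPM.

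Whether effectors followed Npas4 was tested in the 14 libraries outside male KO Tau, which lack the high Npas4 values that entered the choice of genes. That choice was still made with earlier results of these data known. Each library was expressed as its deviation from its group mean in log2 CPM, and libraries were exchanged within groups in an exact two-sided permutation test with 2592 arrangements, adjusted over the 8 effectors. Arc had the highest Pearson r with Npas4, 0.63 (exact permutation p = 0.0340, adjusted p = 0.215; Spearman rho 0.70, p = 0.0355, adjusted p = 0.151). Sorcs3 followed with r = 0.59 (exact permutation p = 0.181, adjusted p = 0.483; rho 0.66, p = 0.0795, adjusted p = 0.167). Nptx2 had r = 0.57 (exact permutation p = 0.0536, adjusted p = 0.215; rho 0.63, p = 0.0378, adjusted p = 0.151). The remaining values of r were 0.32 for Ptgs2, 0.30 for Homer1, 0.02 for Pcsk1, -0.07 for Inhba and -0.16 for Rgs2 (exact permutation p = 0.616, 0.297, 0.967, 0.757 and 0.539, adjusted p = 0.821, 0.593, 0.967, 0.865 and 0.821; rho 0.13, 0.53, 0.09, 0.02 and -0.16, p = 0.796, 0.0833, 0.852, 0.958 and 0.664, adjusted p = 0.958, 0.167, 0.958, 0.958 and 0.958). Thus 0 of 8 effectors passed, with 1 at an unadjusted Pearson p under 0.05.

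Some of these values rested on few libraries. Without the 2 libraries farthest in Npas4 (both of female WT Tau, 331 and 341) r was 0.59 for Arc, 0.53 for Nptx2, 0.38 for Sorcs3 and 0.46 for Pcsk1. Within the 9 male libraries r was 0.50 for Arc, 0.45 for Nptx2, 0.41 for Pcsk1 and 0.05 for Sorcs3, and 0 of 8 passed. The 5 female libraries were too few for a correlation of their own. Leaving out KO PBS 752 let Nptx2 pass (r = 0.76), and leaving out KO PBS 753 let Nptx2 (r = 0.67) and Homer1 (r = 0.56) pass.

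**Figure D4:**
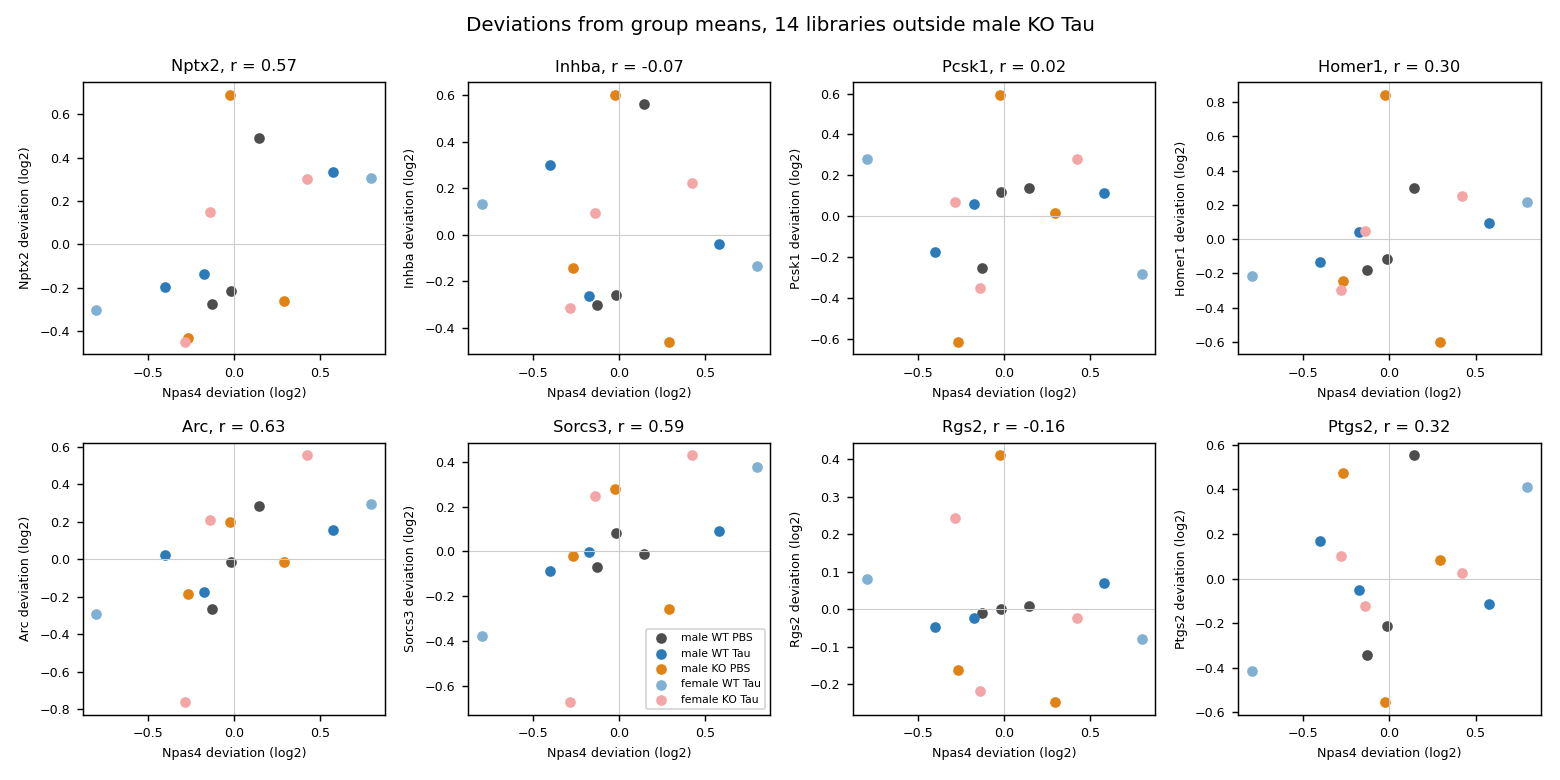
Deviation of each effector (vertical axes) against that of Npas4 (horizontal axes), both in log2 CPM from the group mean, for the 14 libraries outside male KO Tau, coloured by group. The points rise for Arc (r = 0.63), Sorcs3 (0.59) and Nptx2 (0.57) and form no slope for Pcsk1 (0.02) and Inhba (-0.07).

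As a description over all 17 libraries, the 5 genes most like Npas4 among 15043 ranked by Pearson r of log2 CPM were Ankrd12 (0.84), Adrb3 (0.82), Tcte2 (0.81), Ppp1r15a (0.81) and Usp2 (0.80). Ppp1r15a, a stress-induced phosphatase subunit, measured 12.0, 17.2 and 14.6 CPM in male KO Tau 711, 712 and 713, against 10.7 to 15.3 CPM in the other males, so its excursion was far smaller than that of Npas4. Arc ranked highest of the effectors (r = 0.63, rank 380), then Nptx2 (0.55, rank 1185), Sorcs3 (0.53, rank 1468), Homer1 (0.42, rank 3036), Rgs2 (0.38, rank 3576), Pcsk1 (0.19, rank 5609), Inhba (0.04, rank 7084) and Ptgs2 (-0.24, rank 9873). Over the 14 libraries outside male KO Tau, without removing group means, r was 0.80 for Arc (rank 99), 0.77 for Sorcs3 (rank 216), 0.69 for Nptx2 (rank 803) and -0.03 for Rgs2 (rank 7875). The points of both rankings share groups, sexes and dissection.

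Tau alone, in male WT mice, gave log2 differences from -0.40 to 0.20 among the members, with SEs of 0.14 to 0.45. Npas4 differed by 0.12 (log2 fold change, SE 0.42), Arc by 0.20 (SE 0.24) and Ptgs2 by 0.20 (SE 0.29). Nptx2 differed by -0.28 (SE 0.35), Pcsk1 by -0.40 (SE 0.45), Homer1 by -0.14 (SE 0.30), Rgs2 by -0.11 (SE 0.20), Inhba by -0.02 (SE 0.37) and Sorcs3 by -0.01 (SE 0.14). In edgeR 0 of 9 members passed the FDR (0.0% of genes called) and 0 had an unadjusted p under 0.05, and DESeq2 and limma voom also called 0 at either level. Each adjusted p was 1.00. The groups did not overlap for Pcsk1 and Rgs2, both lower with tau, against 12.2% of genes without overlap.

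Loss of Acss2 alone, in PBS-injected males, gave log2 differences from -0.39 to 0.73, with SEs of 0.14 to 0.45. Inhba differed by 0.73 (log2 fold change, SE 0.36), Arc by 0.50 (SE 0.25), Sorcs3 by 0.32 (SE 0.14), Homer1 by 0.27 (SE 0.30), Ptgs2 by 0.24 (SE 0.29) and Npas4 by 0.13 (SE 0.42). Pcsk1 differed by -0.39 (SE 0.45), Rgs2 by -0.14 (SE 0.20) and Nptx2 by -0.01 (SE 0.35). In edgeR 0 of 9 members passed the FDR (0.00662% of genes called, which is Acss2), each with an adjusted p of 1.00, and 1 (Sorcs3) had an unadjusted p under 0.05. DESeq2 and limma voom called 0, with 2 (Arc and Sorcs3) and 1 (Arc) at an unadjusted p under 0.05. All 9 members overlapped between the groups, where 11.7% of genes did not. Without KO PBS 752 the difference was 0.37 (SE 0.36) for Inhba, 0.18 (SE 0.13) for Sorcs3, -0.44 (SE 0.33) for Nptx2 and -0.28 (SE 0.18) for Homer1, and 752 was the library with striatal and neocortical markers.

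In tau-injected females the KO minus WT difference was positive for 7 of 9 members, and 0 passed the FDR. Npas4 differed by 1.08 (log2 fold change, SE 0.60), Arc by 0.78 (SE 0.38), Inhba by 0.64 (SE 0.33), Ptgs2 by 0.57 (SE 0.24), Sorcs3 by 0.55 (SE 0.30), Nptx2 by 0.27 (SE 0.34), Homer1 by 0.14 (SE 0.19), Rgs2 by -0.11 (SE 0.21) and Pcsk1 by -0.41 (SE 0.48). In edgeR 0 of 9 were called (0.00649% of genes), each with an adjusted p of 1.00, and Ptgs2 had an unadjusted p under 0.05. DESeq2 and limma voom called 0, with 2 (Arc and Ptgs2) and 3 (Arc, Ptgs2 and Sorcs3) at an unadjusted p under 0.05. Npas4, Inhba and Ptgs2 did not overlap between the 3 KO and 2 WT libraries, against 16.1% of genes. Female WT Tau 331 held the least Npas4, Nptx2, Sorcs3, Homer1 and Arc of all 17 libraries. It also had 1585 CPM of excitatory neuron markers, the lowest of the series, and 11574 CPM of oligodendrocyte markers, the highest. Thalamus markers were highest in that library as well, at 391 CPM. Without 331 the differences were 0.51 (SE 0.67) for Npas4, 0.52 (SE 0.49) for Arc, 0.22 (SE 0.24) for Ptgs2 and 0.23 (SE 0.34) for Sorcs3, with the lone WT library assumed to vary like the other groups. Without the other WT library, 341, they were 2.11 (SE 0.80), 1.09 (SE 0.51), 1.03 (SE 0.26) and 0.96 (SE 0.36) for the same genes. The size of the difference thus depended on which WT library was kept, and no member passed the FDR either way. The part of tissue makeup in this comparison was not tested.

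The lists of related genes were read by counts. Of 15 other activity-induced transcription factors, 0 passed the FDR of edgeR in any of the 6 group comparisons with all libraries, and in male KO Tau against WT PBS 12 were lower and 3 higher, with a median log2 fold change of -0.68 against 0.00 over all genes. Of 19 other activity-induced effectors 0 passed, 15 were lower and the median was -0.23. At an unadjusted p under 0.05 the counts in that comparison were 4 and 7, all lower, against 6.33% of all genes. Without 711 the medians were -0.44 for the transcription factors (11 lower, 4 higher) and -0.26 for the effectors (13 lower, 6 higher), and without 712 all 15 transcription factors were lower (median -0.67). The male KO Tau libraries also stood apart in dentate granule, neocortex and astrocyte markers, as given above, and the part of those in the list values was not tested. The calls changed when only the compared groups were fitted and 711 was left out. This edgeR fit was chosen after seeing the data, so nothing is read from its calls. Against WT PBS edgeR then called 3 transcription factors (Fosl2, Jun and Nr4a3) and 3 effectors of the list (Bdnf, Sik1 and Tiparp), all lower, where it called 4.15% of all genes. Against WT Tau it called 3 and 6, of which 1 effector was higher, and against KO PBS 0 and 0. Of 20 upstream regulators and partners, 13 were lower (median -0.04, 0 at an unadjusted p under 0.05), and of 26 partners and paralogs of the effectors 14 were lower (median -0.09, 2 at an unadjusted p under 0.05, both higher). The same edgeR fit of the compared groups without 711 called 1 regulator (Mef2c, higher) and 4 partners and paralogs (2 higher and 2 lower) against WT PBS. In tau-injected females the median of the transcription factors was 0.27, with 11 of 15 higher in KO and 0 at an unadjusted p under 0.05.

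The largest differences of those lists in male KO Tau against WT PBS were Sik1, a kinase induced through CREB, at -1.22 (log2 fold change, SE 0.20, edgeR adjusted p = 0.159) and Fosl2, an AP-1 subunit, at -1.01 (SE 0.16, edgeR adjusted p = 0.159). With only the compared groups and without 711 they were -1.06 (SE 0.17, edgeR adjusted p = 0.0220) and -0.91 (SE 0.16, edgeR adjusted p = 0.0255). That fit was chosen after seeing the data, and the male KO Tau libraries were part of the choice of genes. Nothing is therefore read from its adjusted p-values. Sik1 was between 5.74 (711) and 9.54 (712) CPM in male KO Tau, against 11.2 to 20.1 CPM in the other 9 males. Fosl2 was at 37.1, 50.9 and 43.4 CPM, against 52.1 to 106 CPM. Group means of Sik1 and Fosl2 were 12.6 and 59.7 CPM in male KO PBS, against 18.2 and 88.6 CPM in male WT PBS. In tau-injected females they were 15.5 and 53.7 CPM in KO, against 13.9 and 49.7 CPM in WT. All 3 male KO Tau libraries were below the other 9 males for both genes, which held for 0.764% of all genes. Both genes were named for their large differences in this contrast, so nothing is read from that share. Gpr3, a receptor that raises cAMP, differed by -0.73 (SE 0.20), and Bdnf, the neurotrophin and a known NPAS4 target, by -0.63 (SE 0.25). Bdnf was at 45.2, 37.9 and 43.1 CPM in 711, 712 and 713, inside the range of 32.0 to 78.5 CPM of the other males. The low end of that range was a single library, KO PBS 752, and the next was KO PBS 753 at 54.3 CPM. Fos, the prototype of the early-response genes, was at 9.27, 82.1 and 32.6 CPM, so 712 was above and 711 below the range of 16.3 to 48.5 CPM of the other males. Library 712 therefore had the most Fos as well as the most Npas4, and 713 had raised Npas4 without raised Fos.

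**Figure D5:**
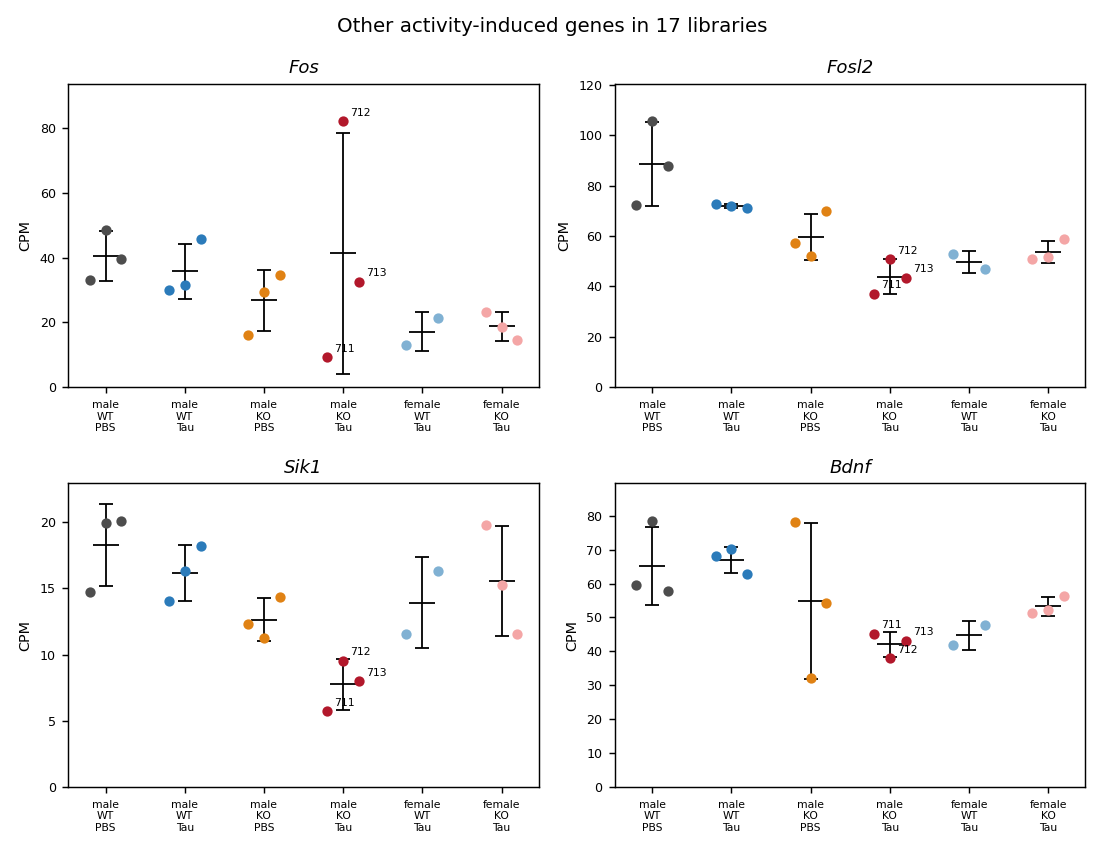
CPM of Fos, Fosl2, Sik1 and Bdnf (vertical axes, from 0) in 17 libraries by group, with mean and SD bars and the male KO Tau libraries numbered. Fos is highest in 712 at 82.1 CPM, and the 3 male KO Tau libraries lie below the other 9 males for Fosl2 and Sik1.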

How the data were processed

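Bulk RNA-seq was measured in 17 libraries of mouse dorsal hippocampus. Per the labels, the animals had been perfused with fixative before RNA extraction from thick slices. Per the study's methods and processing notes, the authors aligned reads with STAR 2.5.2 to mm10 (GRCm38), used SAMtools 1.1, counted reads over exons with HTSeq 0.9.1 in reverse-stranded mode, and tested with DESeq2. The annotation release was not given in the sources used here. The deposited values were raw counts per gene symbol for all libraries, with no normalization. The study's bulk analysis was of males and used fewer KO Tau libraries than the 3 labelled.

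Groups followed the labels. Counts were tested with the edgeR 4.0.16 quasi-likelihood F-test (R 4.3.3, TMM factors, filterByExpr with minimum count 10 and total 15, Benjamini-Hochberg FDR 0.05). The 12 male libraries were fitted together (15098 genes), as were the 11 Tau libraries (15419 genes) for the female comparison and sex by genotype. Each edgeR SE is the absolute log2 fold change divided by the square root of its F statistic. Whether replicates came from separate animals was taken from the animal numbers. CPM used total counts, and correlations used TMM-scaled log2 CPM with a prior count of 2. RPKM used the union of exons in GENCODE vM21, so an exon not used in this tissue lowers a gene's value. Total counts of 14183131 to 22463635 limit precision, and limits from counts cover counting error only. Alternatives were DESeq2 1.42.0, voom in limma 3.58.1, RLE factors, no filter, fewer or more libraries, a dentate granule covariate, and each replicate left out. An edgeR fit of the compared groups without 711 was chosen after seeing the data. The edgeR and correlation code was tested on simulated data with known answers.

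The members, gene lists and comparisons were chosen with earlier results of these data known. Named genes were the members, Acss2, up to 4 genes per list with the largest changes, and the 5 genes most like Npas4. Fos was named by that rule in male KO Tau against KO PBS.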

Additional observations from a re-analysis of the deposited data

Results flagged for a closer look

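Ptgs2 differed in the direction of its KO minus WT difference under Tau between the sexes. It was listed because the libraries did not overlap in either sex. Every male KO Tau library was below every male WT Tau library, and every female KO Tau library above every female WT Tau library. Of all genes, 12.6% had no overlap in the male contrast and 16.1% in the female one, in either direction. The share with opposite directions in the sexes was not counted. The male difference was -0.45 (log2 fold change, SE 0.29) and the female difference 0.57 (SE 0.24), so male minus female was -1.01. The male libraries were 22.4, 14.3 and 22.2 CPM in KO Tau and 26.2, 30.6 and 24.8 CPM in WT Tau. The female libraries were 35.3, 32.1 and 40.4 CPM in KO Tau and 18.6 and 31.2 CPM in WT Tau. In the interaction of sex and genotype Ptgs2 had an unadjusted p under 0.05 with edgeR, DESeq2 and limma voom, and 0 of 8 effectors passed the FDR with any of them (0.0% of genes called in edgeR). The male KO Tau libraries were part of the choice of genes, so nothing is read from that interaction. Without female WT Tau 331 or 341 it was -0.67 or -1.47. Males and females also differed in astrocyte and excitatory neuron marker levels, and the part of those in the difference was not tested.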

How the results depend on the processing

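No paired analysis was possible because the groups compared share no replicate numbers. Of 161 counts of members called or passing under the alternatives, 159 kept the value of 0; leaving out 1 replicate moved the count of effectors passing the correlation with Npas4 between 0 and 2. Of 1430 values of single genes, 1382 kept their direction and side of the threshold, 42 turned direction, 3 passed the threshold newly and 3 moved. No alternative or left-out replicate called a member that was counted. Npas4 was not counted in the male KO Tau contrasts, because its values there entered the choice of genes. In the study's own analysis of KO Tau against WT PBS, Npas4 was the most significantly changed transcript after Acss2. The cause of the turns was not tested.

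Against WT PBS, male WT Tau turned to 0.030 for Inhba with voom and to 0.0048 for Sorcs3 with the dentate granule covariate. Male KO PBS turned to -0.073 for Npas4 and -0.039 for Homer1 with that covariate, to -0.087 for Homer1 with voom, and for Nptx2 to 0.0010 with DESeq2 and 0.0018 with no filter. Pearson r turned to 0.072 for Inhba and -0.085 for Ptgs2 without the 2 farthest libraries, to -0.023 for Pcsk1 with total-count scaling and -0.10 with the dentate score removed, and to 0.059 for Rgs2 and -0.10 for Ptgs2 in the 9 males.

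Leaving out 1 replicate gave log2 ranges in male WT Tau against WT PBS of -0.22 to 0.31 for Npas4, -0.45 to 0.017 for Nptx2, -0.19 to 0.33 for Inhba, -0.051 to 0.032 for Sorcs3 and -0.23 to 0.023 for Homer1. In male KO PBS against WT PBS they were -0.034 to 0.25 for Npas4, -0.44 to 0.28 for Nptx2, -0.28 to 0.53 for Homer1 and -0.026 to 0.57 for Ptgs2. In females they were -0.24 to 0.0047 for Rgs2 and -0.046 to 0.37 for Homer1. Ranges of r were -0.17 to 0.072 for Inhba, -0.18 to 0.46 for Pcsk1 and -0.085 to 0.50 for Ptgs2. The female comparison rested on 2 WT libraries.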
